A study of Rattus norvegicus with 10 samples.

Results

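Aminoacyl-tRNA synthetases are the enzymes that load each amino acid onto its transfer RNA. The 35 members described here are 19 synthetases that serve translation in the cytosol and 16 that serve the mitochondrion. They were taken by gene name from the annotation of the array's probe sets, whichever direction they moved. The set itself was chosen with earlier results of these data known. Of the 14217 genes followed on the array, 32 were members with a probe set annotated to that gene alone, 19 cytosolic and 13 mitochondrial, read by 50 probe sets in all. The other 3 members were mitochondrial: Mars2 was read only by a probe set annotated to several gene entries, and Lars2 and Pars2 were not analysed here.

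RNA was measured in liver of female Harlan Sprague-Dawley rats. Indole-3-carbinol (I3C), a compound formed from cruciferous vegetables, was given by gavage in corn oil at 300 mg/kg on 5 days per week, and the vehicle group received corn oil alone. Dosing lasted 13 weeks by the sample labels, though the design text of the series names a 2 year study. Each group had 5 arrays, and the labels do not number animals, so each p-value rests on sample-to-sample spread that may be partly technical. All livers were whole tissue, so a change in the share of a cell type and a change in RNA per cell cannot be told apart.

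A synthetase activates its amino acid with ATP and transfers it to the matching tRNA. The cytosolic enzymes feed the ribosomes that make most of the liver's protein, including the secreted plasma proteins, and several of them sit together in the multi-synthetase complex. The mitochondrial enzymes are encoded in the nucleus, imported, and charge the tRNAs for the few proteins of the respiratory chain that mitochondria make themselves. Gars1 and Kars1 each encode the enzyme of both compartments. Several cytosolic synthetase genes are known targets of ATF4, the transcription factor induced when amino acids are short or the endoplasmic reticulum is stressed.

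Of the 19 cytosolic synthetases, 9 rose with I3C and 0 fell, at an adjusted p under 0.05 (limma, Benjamini-Hochberg over all probe sets). Of all genes followed, 3.32% rose and 3.11% fell. Across the cytosolic genes the median difference, I3C minus vehicle, was 0.28 on the log2 scale, against -0.00 for all genes, with a range from -0.11 to 0.56. Of the 13 mitochondrial synthetases measured, 1 rose and 0 fell, and their median difference was -0.10. The mitochondrial gene that rose was Iars2, the isoleucyl enzyme, at 2.96 ± 0.10 (SE), or 7.77-fold. In 8 cytosolic genes and 1 mitochondrial gene every I3C array lay above every vehicle array, an arrangement found in 4.61% of all genes, and in 0 members did every I3C array lie below, against 4.07% of all genes. Whether the compartments differed from each other was not tested. The mitochondrial genes were dimmer, at a median level percentile of 67.5 against 90.6 for the cytosolic genes. What part level took in these counts was not tested. A measure of RNA integrity, the GAPDH 3′ minus 5′ probe set difference, also separated the groups, at 0.45 ± 0.12 in vehicle and 0.23 ± 0.05 with I3C (SD, n = 5 each), and when it was held constant in limma 0 cytosolic genes passed, with a median of 0.21, while Iars2 still did. In that fit 0.802% of all genes rose.

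**Figure D1:**
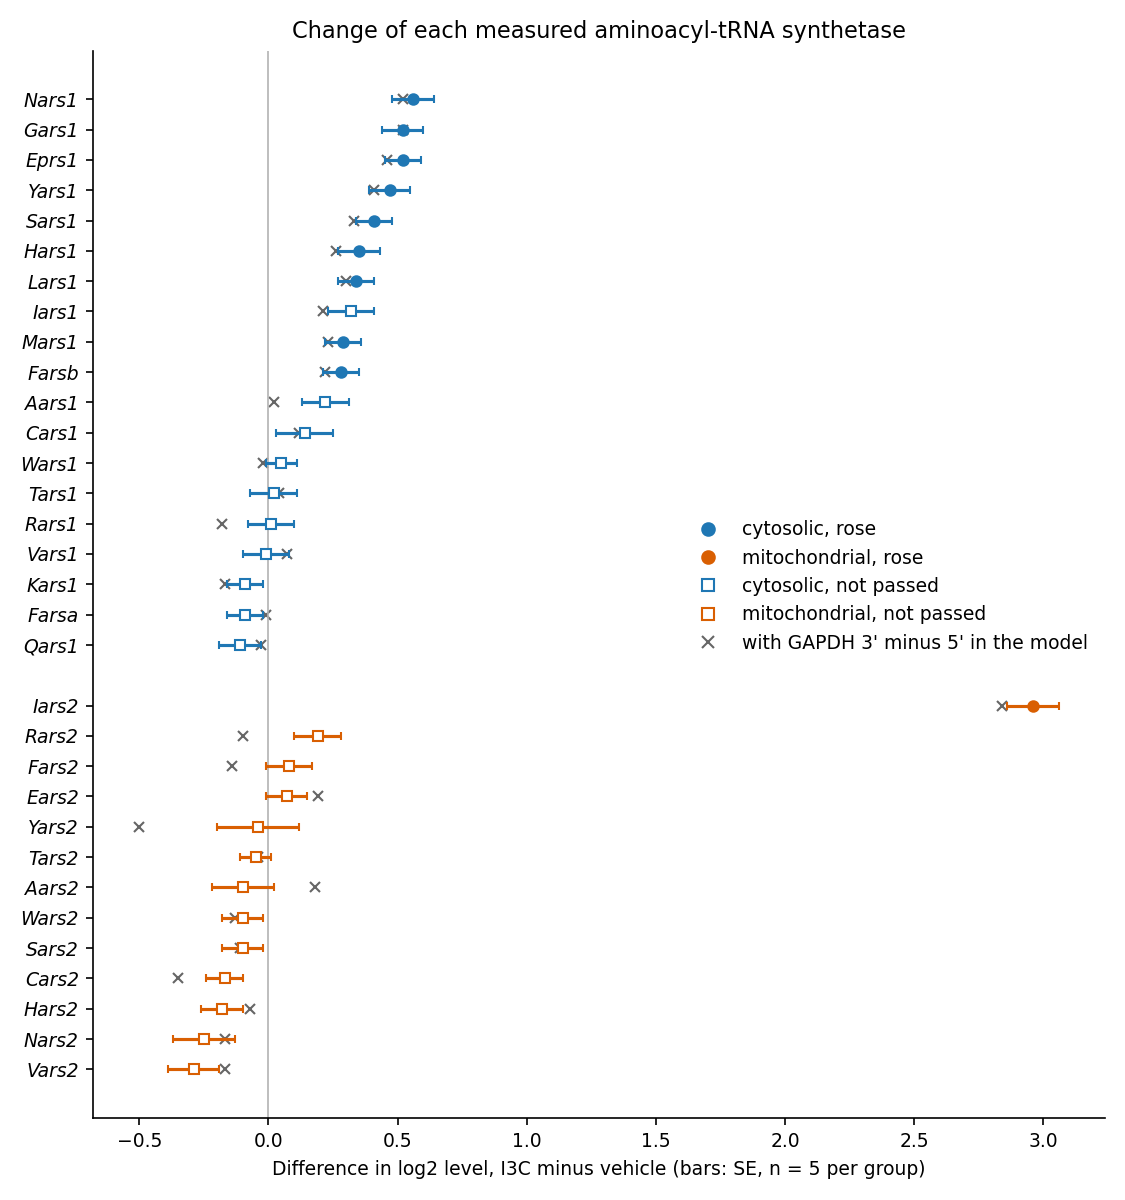
Change of each of the 32 measured synthetases with I3C: the difference of group means on the log2 scale (I3C minus vehicle, 5 arrays each), with its standard error, filled where the gene rose. Crosses give the difference with the GAPDH 3′ minus 5′ value in the model. The cytosolic genes ran from -0.11 to 0.56, and all mitochondrial genes but Iars2, at 2.96, lay between -0.29 and 0.19.

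Iars2 showed the largest change of any member. In vehicle liver its probe set read 8.24, 8.55, 8.49, 8.39 and 8.36 on the log2 scale in replicates 1 to 5. With I3C it read 11.46, 11.48, 11.07, 11.58 and 11.25. The groups were widely apart, and the lowest I3C array lay far above the highest vehicle array. The means were 8.41 ± 0.12 and 11.37 ± 0.20 (SD, n = 5 each), the adjusted p was 3.03e-09 (limma), and the gene ranked 8 of 14217 by difference. Only 1 probe set was annotated to Iars2, so no other probe set on the array checked this reading. Its link to Iars2 rests on the array annotation alone, and whether it reads another transcript was not tested. Of its neighbours in gene order, Rab3gap2 differed by 0.06 ± 0.08 (adjusted p = 0.833), Bpnt1 by 0.27 ± 0.09 (adjusted p = 0.152), Slc30a10 by -0.20 ± 0.14 (adjusted p = 0.583) and Lyplal1 by 0.15 ± 0.08 (adjusted p = 0.403). Another close neighbour, Eprs1, is itself a synthetase gene and rose, with values given among the cytosolic genes.

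The bases before the Iars2 start are shown because it is the member with the largest change. The stretch is from RefSeq, build GRCr8, chr13:99397069-99397318, minus strand, 52% GC, read 5′ to 3′ along the gene and ending just before its start. Capitals mark GCGTG or its reverse complement CACGC, the inner core of the element bound by the aryl hydrocarbon receptor (AHR), a sensor of foreign and dietary compounds.
Iars2: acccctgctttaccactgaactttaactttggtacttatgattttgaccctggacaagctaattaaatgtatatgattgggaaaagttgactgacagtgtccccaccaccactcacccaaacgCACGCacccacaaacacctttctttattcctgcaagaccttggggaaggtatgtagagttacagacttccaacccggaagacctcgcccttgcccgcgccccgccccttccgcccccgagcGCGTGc
The window from 250 bases before to 50 after the start held 2 GCGTG matches on either strand. At least 1 was found in 32.4% of all 27457 genes in the promoter table, in windows of that length. Most members had 1 or more too, 12 of 16 mitochondrial (75%) and 11 of 17 cytosolic (64.7%). Searched on both strands, the Iars2 window held 0 matches to the longer AHR core TNGCGTG, which contains GCGTG. It held 0 matches to the ATF4 core TGATGNAA. A match is a description of letters and not of binding.

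Synthetases fall into classes I and II by the fold of the active site, and the class II cytosolic genes that rose were Nars1, Gars1, Sars1, Hars1 and Farsb. Nars1, the asparaginyl enzyme, read 10.29, 10.33, 10.53, 10.09 and 10.30 in vehicle and 10.91, 10.98, 10.72, 10.96 and 10.79 with I3C, so the groups did not overlap. Nars1 rose by 0.56 ± 0.08, or 1.48-fold (adjusted p = 0.00193, limma). Gars1, the glycyl enzyme, read 9.53, 9.59, 9.60, 9.61 and 9.55 in vehicle, a narrow range, and 10.25, 10.20, 9.85, 10.01 and 10.16 with I3C, where replicate 3 was the lowest. It rose by 0.52 ± 0.08 (adjusted p = 0.00196), and its other probe set rose by 0.56 ± 0.11. Sars1, the seryl enzyme, read 9.12, 9.16, 9.12, 8.90 and 8.96 in vehicle and 9.50, 9.59, 9.32, 9.38 and 9.49 with I3C. All I3C arrays lay above all vehicle arrays, and Sars1 rose by 0.41 ± 0.07 (adjusted p = 0.00692).

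Hars1, the histidyl enzyme, read 7.34, 7.58, 7.33, 7.42 and 7.25 in vehicle and 7.60, 7.86, 7.82, 7.60 and 7.78 with I3C, with a small gap between vehicle replicate 2 and the lowest I3C arrays. It rose by 0.35 ± 0.08 (adjusted p = 0.0259, limma), and its other probe set rose by 0.49 ± 0.08 (adjusted p = 0.0027). The call on the brighter probe set ended without vehicle replicate 1 or 3 or I3C replicate 2, 3 or 5, with adjusted p of 0.0668, 0.0677, 0.0741, 0.0677 and 0.0698. Farsb encodes the beta subunit of the phenylalanyl enzyme, which works as a tetramer with the alpha subunit from Farsa. Farsb read 9.14, 9.16, 9.15, 9.16 and 9.04 in vehicle and 9.58, 9.49, 9.23, 9.34 and 9.41 with I3C, and rose by 0.28 ± 0.07 (adjusted p = 0.0447). Its groups were apart, but among the fits that left out 1 array the call held only without I3C replicate 3. Without each of the other 9 arrays in turn the adjusted p ran from 0.0573 to 0.114. The dimmer Farsb probe set differed by 0.23 ± 0.10 (adjusted p = 0.272). Its partner Farsa read 7.56, 7.64, 7.66, 7.46 and 7.73 in vehicle and 7.51, 7.64, 7.48, 7.51 and 7.45 with I3C, overlapping throughout, and differed by -0.09 ± 0.07 (adjusted p = 0.603).

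Eprs1 encodes the fused glutamyl-prolyl enzyme, which joins a class I and a class II synthetase in the multi-synthetase complex. Its brightest probe set read 11.15, 11.35, 11.35, 11.23 and 11.21 in vehicle and 11.73, 11.85, 11.67, 11.79 and 11.82 with I3C. The groups were well apart, and Eprs1 rose by 0.52 ± 0.07, or 1.43-fold (adjusted p = 0.000585, limma). The 4 probe sets of Eprs1 did not read alike. One rose by 0.90 ± 0.22 (adjusted p = 0.0376), with vehicle replicate 5 at 6.78 and the other vehicle arrays from 7.72 to 8.25. Another differed by 0.52 ± 0.23 (adjusted p = 0.271), with vehicle replicate 5 again the lowest by far and the others from 11.17 to 11.46. Without vehicle replicate 5 these differences were 0.64 ± 0.10 (adjusted p = 0.00268) and 0.26 ± 0.09 (adjusted p = 0.137), and that of the brightest probe set was 0.50 ± 0.07. The dimmest, near 4.86, differed by 0.03 ± 0.09.

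The class I enzymes that rose were Yars1, Lars1 and Mars1. Yars1, the tyrosyl enzyme, read 9.68, 9.81, 9.77, 9.46 and 9.73 in vehicle and 10.22, 10.19, 10.02, 10.26 and 10.10 with I3C. Its groups did not overlap, and it rose by 0.47 ± 0.08 (adjusted p = 0.00401, limma). Lars1 is the leucyl enzyme of the multi-synthetase complex, and also acts as a leucine sensor upstream of mTORC1. It read 9.33, 9.48, 9.47, 9.45 and 9.32 in vehicle and 9.71, 9.90, 9.64, 9.71 and 9.80 with I3C, again without overlap. Lars1 rose by 0.34 ± 0.07 (adjusted p = 0.0109), and its dimmer probe set rose by 0.34 ± 0.08 (adjusted p = 0.0212).

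Mars1, the methionyl enzyme, also charges the initiator tRNA. It read 9.69, 9.90, 9.95, 9.69 and 9.75 in vehicle and 10.06, 10.16, 9.94, 10.10 and 10.17 with I3C. The groups overlapped by 1 array, I3C replicate 3, which read just under vehicle replicate 3. Mars1 rose by 0.29 ± 0.07 (adjusted p = 0.0409, limma). That call ended without vehicle replicate 1 or 4, at adjusted p of 0.104 and 0.0995, and without I3C replicate 1, 2, 4 or 5, at 0.0727, 0.105, 0.0898 and 0.106. The dimmer Mars1 probe set differed by 0.55 ± 0.15 with its groups apart (adjusted p = 0.0511).

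The other 10 cytosolic genes did not pass. Iars1, the cytosolic isoleucyl enzyme, came nearest, with 8.80, 9.01, 8.78, 8.68 and 8.67 in vehicle and 8.87, 9.27, 9.08, 9.02 and 9.30 with I3C. The groups overlapped through I3C replicate 1, and the difference was 0.32 ± 0.09 (adjusted p = 0.0808, limma). It passed when vehicle replicate 2 or I3C replicate 1 was left out, at 0.38 each time (adjusted p = 0.045 and 0.0423). Aars1, the alanyl enzyme, differed by 0.22 ± 0.09 (adjusted p = 0.219), and the 4 probe sets of Cars1, the cysteinyl enzyme, by 0.04 to 0.14. Wars1 (tryptophan) at 0.05 ± 0.06, Tars1 (threonine) at 0.02 ± 0.09, Rars1 (arginine) at 0.01 ± 0.09 and Vars1 (valine) at -0.01 ± 0.09 had differences no larger than their errors. Kars1, the lysyl enzyme, differed by -0.09 ± 0.07 (adjusted p = 0.663), and Qars1, the glutaminyl enzyme, by -0.11 ± 0.08 (adjusted p = 0.575).

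Within the cytosolic set, 3 of the 7 measured members of the multi-synthetase complex rose, Eprs1, Lars1 and Mars1, with a median difference over all 7 of 0.29. Of the 12 outside the complex, 6 rose, with a median of 0.25. By catalytic fold, 3 of 9 class I genes rose (median 0.14) and 5 of 9 class II genes (median 0.28), with Eprs1, which joins the classes, counted in neither. No difference between these subgroups was tested. Of the 34 cytosolic probe sets 13 rose, and of the 16 mitochondrial ones 1 rose, against 2.49% of all probe sets tested. Of the 11 cytosolic genes with several probe sets, 3 (Gars1, Hars1 and Lars1) had each of them rise, and 3 (Eprs1, Farsb and Mars1) had calls that differed between probe sets.

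**Figure D2:**
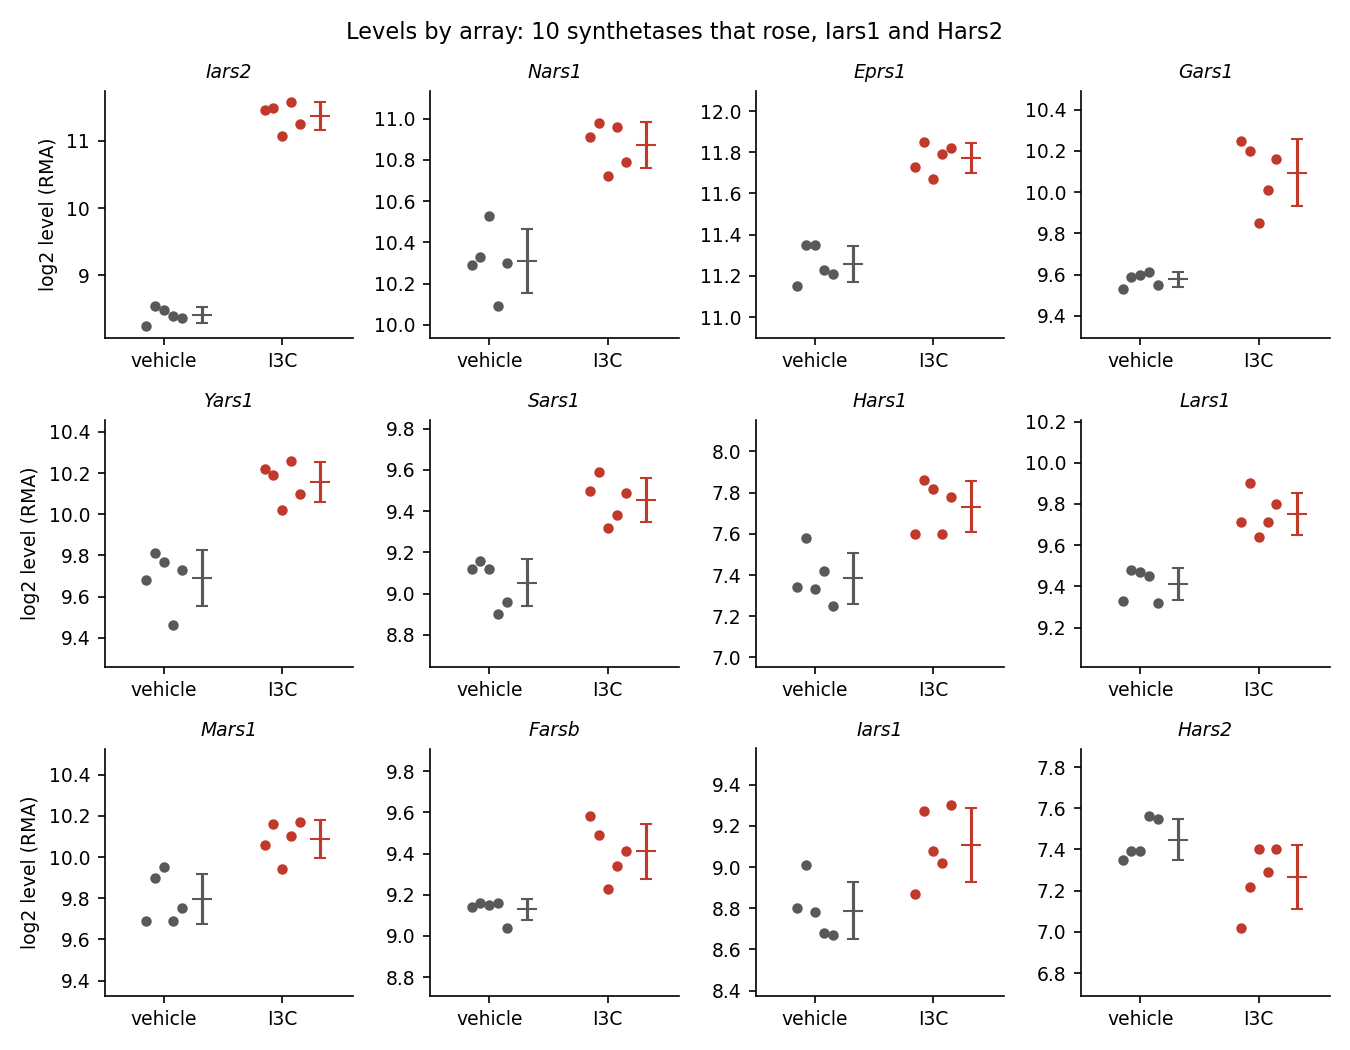
Log2 level on each of the 10 arrays for the 10 synthetases that rose and for Iars1 and Hars2, vehicle and I3C replicates 1 to 5 from left to right, with mean ± SD, each gene on its own axis. The I3C arrays lay above the vehicle arrays in every gene that rose except Mars1, where I3C replicate 3 read 9.94 and vehicle replicate 3 read 9.95.

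The 12 mitochondrial synthetases other than Iars2 ranged from -0.29 to 0.19, and 9 of them lay below 0. By unadjusted p under 0.05, 0 were higher and 3 were lower, against 9.62% of all genes higher and 10.2% lower. Vars2, the valyl enzyme, went from 6.31 ± 0.15 in vehicle to 6.02 ± 0.20 with I3C (SD, n = 5 each), a difference of -0.29 ± 0.10 (adjusted p = 0.157, limma). Nars2, the asparaginyl enzyme, read 5.74, 6.18, 5.95, 6.14 and 6.08 in vehicle and 5.32, 5.95, 5.87, 5.79 and 5.93 with I3C. Its groups overlapped, with I3C replicate 1 the lowest, and differed by -0.25 ± 0.12 (adjusted p = 0.363), or by -0.13 ± 0.09 without that array (adjusted p = 0.605). Hars2, the histidyl enzyme, read 7.35, 7.39, 7.39, 7.56 and 7.55 in vehicle and 7.02, 7.22, 7.40, 7.29 and 7.40 with I3C. Its groups overlapped too, with differences of -0.18 ± 0.08 and -0.16 ± 0.08 on its probe sets. Cars2, the cysteinyl enzyme, differed by -0.17 ± 0.07 (adjusted p = 0.25).

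Sars2, the seryl enzyme, read 7.29, 7.17, 7.42, 7.25 and 7.32 in vehicle and 7.31, 7.09, 7.15, 7.34 and 7.07 with I3C, and differed by -0.10 ± 0.08. Yars2, the tyrosyl enzyme, read 7.78, 8.08, 7.63, 8.12 and 7.11 in vehicle, with replicate 5 the lowest, and 7.56, 7.88, 7.73, 7.54 and 7.79 with I3C. Its difference was -0.04 ± 0.16, the widest error among the followed members, and -0.20 ± 0.11 without vehicle replicate 5. Ears2, the glutamyl enzyme, read 7.17, 7.15, 6.93, 7.11 and 7.24 in vehicle and 7.14, 7.21, 7.21, 7.05 and 7.34 with I3C, overlapping fully, and differed by 0.07 ± 0.08. A probe set shared between Ears2 and the similar gene Ears2l1 differed by 0.41 ± 0.13 (adjusted p = 0.112, limma). Fars2, the phenylalanyl enzyme, read 7.52, 7.70, 7.55, 7.68 and 7.24 in vehicle and 7.60, 7.58, 7.82, 7.49 and 7.61 with I3C, and differed by 0.08 ± 0.09. Rars2, the arginyl enzyme, had the largest difference above 0 among the 12, 0.19 ± 0.09 (adjusted p = 0.336). Tars2 (threonine) at -0.05 ± 0.06, Wars2 (tryptophan) at -0.10 ± 0.08 and Aars2 (alanine) at -0.10 ± 0.12 lay between, with Aars2 at 0.02 ± 0.08 without vehicle replicate 5. The shared Mars2 probe set went from 6.63 ± 0.37 to 6.72 ± 0.08, a difference of 0.10 ± 0.14 (adjusted p = 0.841).

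Setting each cytosolic enzyme against the mitochondrial enzyme of the same amino acid gave 14 pairs, which count Fars2 against each phenylalanyl subunit. The cytosolic difference was the higher in 11 and the lower in 3. In 6 pairs only the cytosolic gene was called, in 1 only the mitochondrial gene, and in 0 both. The widest gap with the cytosolic gene higher was Nars1 over Nars2, 0.81 ± 0.18 between their differences. Hars1 over Hars2 was 0.53 ± 0.10, Sars1 over Sars2 was 0.51 ± 0.11, Yars1 over Yars2 was 0.51 ± 0.23 and Eprs1 over Ears2 was 0.44 ± 0.10. The isoleucyl pair ran the other way, with Iars1 minus Iars2 at -2.64 ± 0.14. Rars1 minus Rars2 was -0.19 ± 0.07 and Farsa minus Fars2 was -0.17 ± 0.14. These gaps are given with no test, and the mitochondrial genes had the lower median level.

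**Figure D3:**
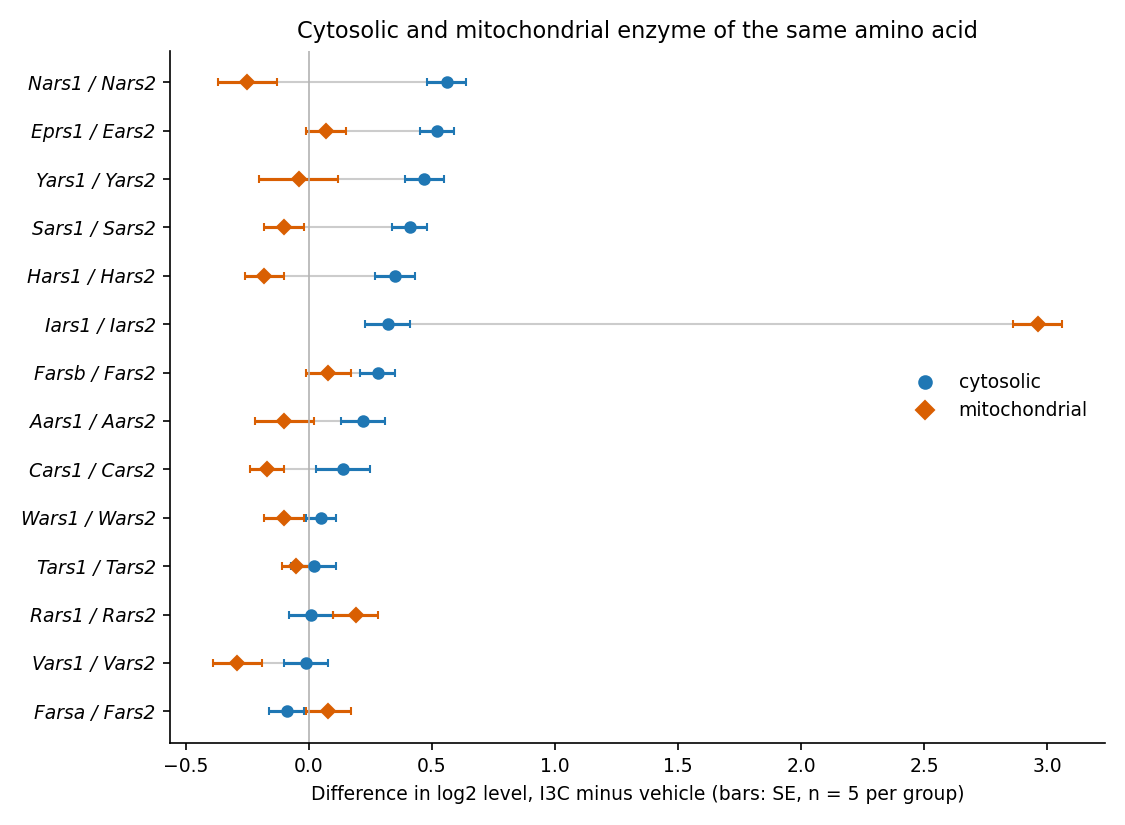
Difference with I3C (log2, I3C minus vehicle, with its standard error) for the cytosolic and the mitochondrial enzyme of each amino acid, 5 arrays per group. The cytosolic point lay to the higher side in 11 of 14 pairs, and the isoleucyl pair stood far the other way, 0.32 for Iars1 and 2.96 for Iars2.

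The histidyl genes are of interest because their starts lie 144 bases apart on opposite strands, and Hars1 rose while Hars2, at -0.18 ± 0.08, did not pass. The bases between the starts are shown from RefSeq, build GRCr8, chr18:28672713-28672855, plus strand, 55.2% GC, in lower case throughout, with no motif marked. They do hold the AHR inner core GCGTG, unmarked, with its first base 26 bases before the Hars2 start.
Hars1 to Hars2: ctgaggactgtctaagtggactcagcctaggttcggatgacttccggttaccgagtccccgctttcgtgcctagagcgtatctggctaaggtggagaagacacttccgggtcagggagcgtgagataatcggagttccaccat

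The ATF4 core was searched because several cytosolic synthetases are known ATF4 targets. The letters TGATGNAA, on both strands, were found in the windows of 7 of 17 cytosolic genes (41.2%), in 0 of 16 mitochondrial genes, and in 4.16% of the 27457 genes of the RefSeq promoter table. Gars1 and Rars1 had no entry in that table, and 33 of the 35 members matched it by symbol. Sites in these genes are printed 5′ to 3′ along the gene, build GRCr8, with the core or its reverse complement in capitals.
Nars1, first capital 14 bases before the start, chr18:60275778-60275807, minus strand: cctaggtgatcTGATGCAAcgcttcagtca
Yars1, first capital 39 bases after the start, chr5:146820190-146820212, plus strand: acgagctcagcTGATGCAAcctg
Mars1, first capital 17 bases before the start, chr7:65023752-65023781, minus strand: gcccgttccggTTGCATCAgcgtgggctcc
Iars1, first capital 24 bases before the start, chr17:15193658-15193687, minus strand: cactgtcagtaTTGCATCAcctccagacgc
Aars1, first capital 10 bases after the start, chr19:55908480-55908509, plus strand: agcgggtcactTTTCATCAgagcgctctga
Cars1, first capital 18 bases after the start, chr1:208225334-208225363, minus strand: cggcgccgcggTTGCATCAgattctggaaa
Tars1, first capital 27 bases before the start, chr2:62114811-62114840, minus strand: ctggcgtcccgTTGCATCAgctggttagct
Of the 7 genes with the core, 3 rose, Nars1, Yars1 and Mars1, all 7 had differences above 0, and their median was 0.29. Of the 10 cytosolic genes whose window lacked it, 5 rose, Eprs1, Farsb, Hars1, Lars1 and Sars1. Differences above 0 were found in 6 of these 10, and their median was 0.16. Across all genes followed on the array, 3.32% rose and 3.11% fell. Whether genes with and without the core differed was not tested. Tars1, which holds the core letters, differed by 0.02 ± 0.09 (adjusted p = 0.952, limma). The AHR core TNGCGTG was found in 1 of 17 cytosolic windows, that of Aars1, and in 6 of 16 mitochondrial ones (37.5%), those of Nars2, Pars2, Rars2, Sars2, Vars2 and Yars2, against 5.45% of all genes. Of the 6 genes with this core that were measured, 0 passed the test, and their median difference was -0.07. At the shares of all genes called, 0 of 6 does not set these genes apart.

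Among genes that make, move and proofread tRNAs, 1 rose clearly. Xpot, exportin-t, which carries mature tRNAs out of the nucleus, read 7.92, 8.0, 7.94, 7.89 and 7.78 in vehicle and 8.43, 8.62, 8.43, 8.46 and 8.63 with I3C. Its groups were clearly apart, and it rose by 0.61 ± 0.07, or 1.52-fold (adjusted p = 0.000295, limma). Of the 18 genes measured for tRNA processing, export and proofreading, 1 rose and 1 fell, against 3.32% and 3.11% of all genes. The median of the 18 was 0.08, and 16 of them lay above 0. By unadjusted p under 0.05, 4 of the 18 were higher and 1 lower, against 9.62% and 10.2% of all genes. The gene that fell was Pop1, a subunit of RNase P, which trims tRNA precursors. Pop1 read 6.86, 6.74, 7.0, 7.27 and 8.04 in vehicle and 6.26, 6.20, 6.25, 6.37 and 6.73 with I3C, a difference of -0.82 ± 0.21 (adjusted p = 0.039). Vehicle replicate 5 was the highest array, and the groups lay close, vehicle replicate 2 just above I3C replicate 5. The call ended without vehicle replicate 3 or 4, at adjusted p of 0.0624 and 0.0836, and without I3C replicate 1, 2, 3 or 4, at 0.0898, 0.0979, 0.0853 and 0.0818. As the mean of its probe sets Pop1 differed by -0.44 ± 0.14 (adjusted p = 0.0849).

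The 3 scaffold proteins of the multi-synthetase complex had 0 calls and a median of 0.11, with Eef1e1 at 0.21 ± 0.10 (adjusted p = 0.336, limma) and Aimp1 at 0.11 ± 0.08 (adjusted p = 0.608). At an unadjusted p under 0.05, 0 of them were higher or lower. The 6 cytosolic elongation factor genes, which bring charged tRNA to the ribosome and move it along, had 0 calls and a median of -0.01, and 0 had an unadjusted p under 0.05. Eef2 differed by -0.14 ± 0.08 (adjusted p = 0.49) and Eef1a1 by -0.10 ± 0.07 (adjusted p = 0.603). Of the 12 genes measured for mitochondrial translation, 0 were called, 2 were higher at an unadjusted p under 0.05, and the median was -0.02. Across all genes followed, 3.32% rose and 3.11% fell, and 9.62% were higher and 10.2% lower by unadjusted p under 0.05. At such shares, 0 calls in lists of 3 to 12 genes do not set them apart from all genes. Gatc, a subunit of the amidotransferase that makes mitochondrial glutaminyl-tRNA, differed by 0.24 ± 0.09 (adjusted p = 0.181), and Mtrf1, a mitochondrial release factor, by 0.35 ± 0.16 (adjusted p = 0.292). Mtrf1 read 6.43 in vehicle replicate 5 and 7.29 to 7.38 in the other vehicle arrays. Without vehicle replicate 5 the highest difference among the 12 genes was 0.17, and 2 were higher and 2 lower by unadjusted p under 0.05.

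ATF4 and its known targets outside the synthetases include genes of amino acid synthesis and transport. Of 30 measured genes, 16 rose, 0 fell and 14 did not pass, against 3.32% of all genes that rose and 3.11% that fell. The median of the 30 was 0.45, and 4 of them lay below 0, the lowest at -0.38. Asns, which makes asparagine, rose by 3.67 ± 0.22 (adjusted p = 1.20e-06, limma), from vehicle arrays between 4.71 and 5.65 to I3C arrays between 8.34 and 9.45. Trib3, a pseudokinase that feeds back on ATF4, rose by 2.99 ± 0.16, Phgdh, which opens serine synthesis, by 2.67 ± 0.20, and Fgf21, a hormone of the fasted liver, by 2.56 ± 0.24. In 16 of the 30 every I3C array lay above every vehicle array, against 4.61% of all genes. Atf4 itself rose by 0.75 ± 0.08 (adjusted p = 0.000147).

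Of the 14 genes for the kinases that phosphorylate eIF2 and the factors around them, 1 rose and 0 fell. Of all genes followed, 3.32% rose and 3.11% fell. The median of the 14 was 0.06. By unadjusted p under 0.05, 4 of the 14 were higher and 0 lower, against 9.62% and 10.2% of all genes. Eif2ak3 (PERK), the kinase of the endoplasmic reticulum, read 7.79, 7.74, 7.64, 7.94 and 7.63 in vehicle and 7.84, 8.24, 8.29, 8.01 and 8.19 with I3C. The groups overlapped, and the difference was 0.37 ± 0.09 (adjusted p = 0.045, limma). That call ended without vehicle replicate 1, 2, 3 or 5, at adjusted p of 0.0812, 0.0841, 0.11 and 0.0625, and without I3C replicate 2, 3, 4 or 5, at 0.116, 0.107, 0.064 and 0.11. Eif2ak4 (GCN2), the kinase that senses uncharged tRNA, differed by 0.05 and did not pass.

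**Figure D4:**
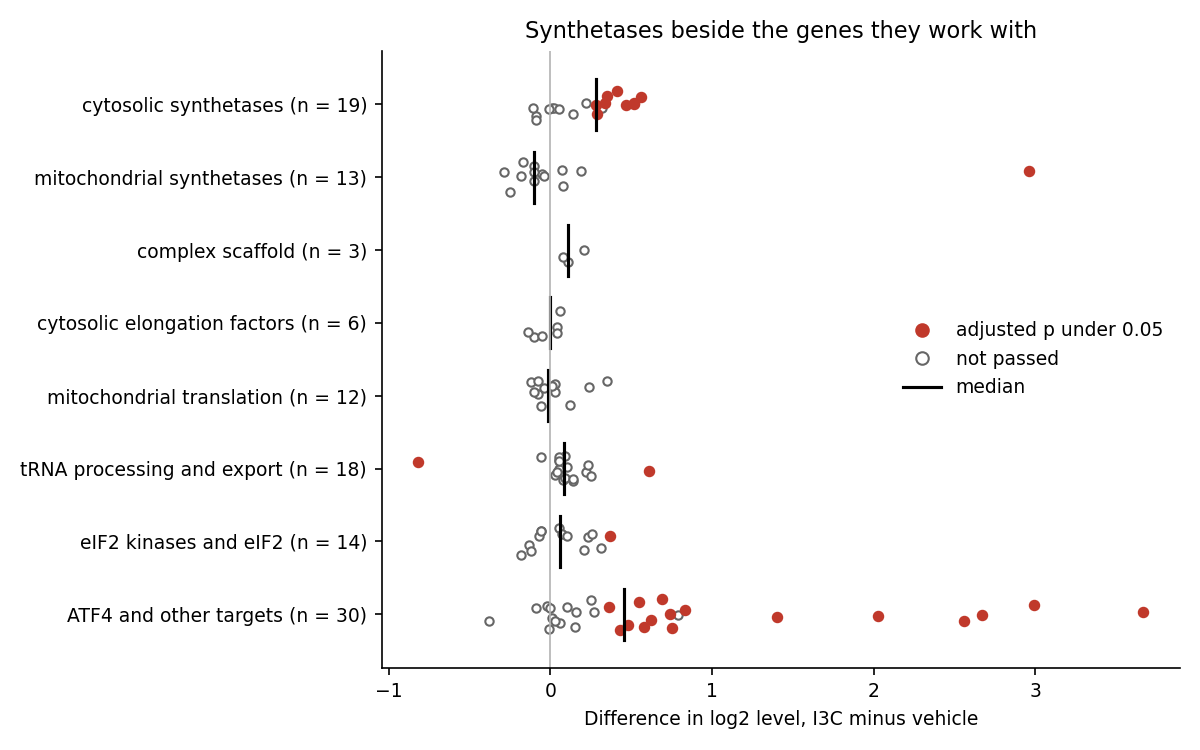
Difference with I3C (log2, I3C minus vehicle) for each measured gene of the synthetase sets and of the gene lists around tRNA charging, one point per gene, filled where the adjusted p was under 0.05, with the median of each set as a bar. The cytosolic synthetases had a median of 0.28, ATF4 and its targets one of 0.45, and the elongation factors and mitochondrial translation genes lay around 0.

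RNA integrity and the markers of other cell types were set beside these results. On arrays primed from the 3′ end, the GAPDH 3′ minus 5′ difference rises with RNA breakdown or short copies. It was 0.32 to 0.65 in vehicle and 0.16 to 0.29 with I3C, without overlap, and the beta-actin difference was 1.45 to 1.74 and 1.17 to 1.53. The GAPDH value of 0.65 was that of vehicle replicate 5, with the other vehicle arrays at 0.32 to 0.45. The same array had the lowest beta-actin difference in vehicle, 1.45. Without vehicle replicate 5, 8 of 19 cytosolic genes rose, with a median of 0.26, and 544 of all 14217 genes rose. Once the GAPDH difference entered the limma fit as a covariate, 0 of 19 cytosolic genes were called (6 had an unadjusted p under 0.05, each of them higher), and their median was 0.21. Of all genes in that fit, 7.40% were higher by unadjusted p under 0.05. There Eprs1 stood at 0.46 ± 0.11 (adjusted p = 0.0679, limma), Gars1 at 0.52 ± 0.13 (adjusted p = 0.0893) and Nars1 at 0.52 ± 0.14 (adjusted p = 0.119). Iars2 stayed called at 2.84 ± 0.16 (adjusted p = 5.00e-06) and Xpot at 0.52 ± 0.11 (adjusted p = 0.0494), whereas Pop1 was at -0.06 ± 0.21 (adjusted p = 0.917). Eif2ak3 was 0.36 ± 0.16 (adjusted p = 0.322), and 11 of the 30 ATF4 genes rose. The beta-actin difference as covariate left 5 cytosolic genes called, Eprs1, Gars1, Lars1, Nars1 and Sars1, where 1.98% of all genes rose. How far RNA quality takes part in the synthetase differences was not tested beyond these fits. Because the GAPDH difference separated the groups without overlap, its part and that of I3C cannot be told apart.

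Of 9 hepatocyte markers the 8 measured lay at or above the 99.7th percentile of probe set levels. Their summed linear level was 156263 to 160691 in vehicle and 154225 to 161862 with I3C. Only 1 of the 8 was called, Apoa1, the main protein of HDL, which rose by 0.38 ± 0.07 (adjusted p = 0.00883, limma). Across all genes followed, 3.32% rose and 3.11% fell. Most of the hepatocyte markers, 5 of 8, lay below 0. By unadjusted p under 0.05, 2 were lower, Ass1 at -0.19 ± 0.06 (adjusted p = 0.0966, limma) and Cps1 at -0.17 ± 0.07 (adjusted p = 0.226). The 5 Kupffer cell and macrophage markers measured of 7 were each lower with I3C, by -0.50 to -0.22, with 0 calls and 4 lower by unadjusted p under 0.05, against 10.2% of all genes. Their summed linear level was 4024 to 4910 in vehicle and 2765 to 3821 with I3C. Pancreatic acinar markers summed to 2458 to 4307 in vehicle and 981 to 1636 with I3C, but only Cpa1 of the 8 genes was called, and it fell by 2.10 ± 0.28 on the log2 scale (adjusted p = 0.000797, limma). Of the 8, 4 lay above 0, among them Cela1 at 0.49 ± 0.17 (adjusted p = 0.133), and Prss1, Ctrb1, Pnlip and Amy2a3 lay between -0.05 and 0.11. Cpb1 was lower, at -0.30 ± 0.12 (adjusted p = 0.233, limma), as was Cel, at -0.20 ± 0.09 (adjusted p = 0.34). Stellate cell (2102 to 2815 and 1979 to 2549), endothelial (3913 to 4507 and 3531 to 4112), cholangiocyte (297 to 469 and 348 to 502) and lymphocyte sums (233 to 312 and 248 to 289) overlapped between vehicle and I3C. Of the 6 stellate genes 1 was called, Lrat, which stores vitamin A as esters and fell by 0.51 ± 0.10 with its groups apart (adjusted p = 0.00889, limma). The part of these cells in the synthetase differences was not tested.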

How the data were processed

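The authors deposited log2 values of 31099 probe sets on 10 rat arrays, made with RMA per the submitters' processing notes. No source used here names its software or version. RMA subtracts background, quantile-normalizes and summarizes probes, so low values and fold changes are compressed. After 57 control probe sets were left out, 31042 were fitted in limma 3.58.1 (R 4.3.3, lmFit and eBayes, I3C against vehicle, Benjamini-Hochberg over all), and the threshold was an adjusted p of 0.05. The script was tested on simulated data with independent noise and no RNA quality difference between groups. The changes planted there were larger than those of the cytosolic genes called here, so that test does not bear on these calls. Probe sets were named from an array annotation of 2016, with symbols updated through RefSeq: 20826 had 1 gene, 436 several and 9780 none. Each gene was followed through its brightest probe set, and others are given where their call differs or their differences lie over 0.5 apart. Of the matched promoter sites, 1 is not reported here. Array values are printed for each member past the threshold and for its partner in the other compartment. From each list up to 4 called genes were named, otherwise the 2 of lowest adjusted p; Atf4, Eif2ak4 and the neighbours of Iars2 were named after their values were seen. The members and lists were chosen with earlier results of these data known. Array medians were 6.21 to 6.29, and the number of arrays limits the precision. Alternatives were the intensity trend, a replicate block, a dim filter, renewed normalization or centring, array weights, RNA measures as covariates, a stricter threshold, means of probe sets, and each array left out.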

Additional observations from a re-analysis of the deposited data

Results flagged for a closer look

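Among 64 groups of 5 arrays (32 genes, 2 treatments), 3 held an array far from the others, a gap above 0.71 of the group's range; chance flags about 1 in 20, or 3.2 here. Farsb read 9.04 in vehicle replicate 5, with the other vehicle arrays between 9.14 and 9.16. Nars2 read 5.32 in I3C replicate 1, with the others between 5.79 and 5.95. Tars2 read 7.96 in I3C replicate 4, with the others between 8.06 and 8.11.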

How the results depend on the processing

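The count of cytosolic synthetases that rose, 9 as reported, was 5 at an adjusted p of 0.01, 0 with the GAPDH 3′ minus 5′ difference as a covariate (6 higher and 0 lower by unadjusted p under 0.05) and 5 with the beta-actin one. The other 7 alternatives gave 6 to 10, and leaving out each array in turn gave 6 to 9. Across the left-out arrays the median cytosolic difference ran from 0.24 to 0.33 and the mitochondrial median from -0.11 to -0.06; 1 mitochondrial gene rose and 0 synthetases fell each time, as under every other alternative. Iars2 was called under each alternative, between 2.84 and 3.03. Eprs1, Gars1, Lars1, Nars1, Sars1 and Yars1 kept their calls without any one array. Of the 22 members not called, only Iars1 was called under any alternative, in 5 settings. Deviations of same-numbered arrays correlated between -0.28 and 0.22. These values were not set against differently numbered arrays, so whether the replicate numbers pair the arrays was not settled. With the replicate block 6 cytosolic genes rose. Signal near background on dim probe sets, and 5 arrays per group, limit which small differences could pass.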
